A study of Bos taurus with 8 samples.

Results

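The 10 genes described here are the 3 peroxisome proliferator-activated receptors, PPARA, PPARG and PPARD, and 7 genes of lipid binding, storage and fuel choice that they are known to control: FABP3, FABP4, FABP5, CD36, PLIN2, PDK4 and ANGPTL4. They were chosen by name, and a probe was assigned to a gene when the RefSeq accession in the scanner output belonged to that gene in the bovine reference. By this rule 9 of the 10 genes, of 7788 named genes on the array, had a probe. CD36, a scavenger receptor that takes up fatty acids, had none and was not analysed here. The 9 genes had 11 probes of 21475, since PPARD and FABP5 had 2 each, and the brighter one was used as the main probe. All samples were rumen papillae of lactating, ruminally cannulated Holstein cows, which had all received a low-concentrate ration before the trial and whose ages the labels do not give. In a crossover, 4 cows each received total mixed rations with 40% concentrate (LC) and with 70% concentrate (HC), and papillae were taken on day 21 of each period, 4 h after feeding. Cows 1 and 2 had LC in period 1 and HC in period 2, and cows 3 and 4 had the reverse order. Each diet therefore has 4 arrays, and each period 4 arrays on a slide of its own, so that period and slide cannot be told apart.

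PPARs are nuclear receptors that bind fatty acids and their derivatives and, paired with a retinoid X receptor, activate genes of lipid uptake, storage and oxidation. PPARA is known for fatty acid oxidation and ketogenesis, PPARG for adipocyte formation and lipid storage, and PPARD for lipid use in many tissues, squamous epithelium included. The rumen epithelium absorbs the short-chain fatty acids of fermentation and turns part of the butyrate into ketone bodies. The comparison of diets asks whether transcripts of these receptors and their targets differ when more fermentable feed is given.

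Values are quantile-normalized log2 signals per probe. They can be compared between arrays for 1 probe, but not between probes. A probe counts as measured on an array where the scanner software found all its spots well above background. The main probes of all 9 genes were so on all 8 arrays, and 0 spots were saturated on any array. Over the arrays, 76.9 to 81.2% of the probes were above background. The tissue label was checked with markers fixed for this report. Of 11 squamous epithelium markers with a probe, 10 were above background on all 8 arrays, among them KRT14, IVL and DSP, while the probe of TP63 was so on none. In a tissue sample, fewer cells of a type and less RNA per cell cannot be told apart.

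Between the diets, only FABP4 of the 9 genes passed the thresholds of the study, a fold change of at least 1.5 with an unadjusted P under 0.05. Here the P came from limma, whereas the study used a general linear model. FABP4 is not on the study's own list of changed genes. Without the moderation of limma, the same linear model gave FABP4 an unadjusted P of 0.0667. FABP4 had a 1.86-fold higher mean signal in the HC group, but its log2 difference was 2.01 in period 1 and -0.22 in period 2. The other 8 genes did not pass, and 7 of the 9 had a log2 fold change smaller than 0.11 in size. Over all probes, 0.922% passed both thresholds, which sets the background for this count of 1 in 9. None of the 9 genes had an adjusted P under 0.05, and 1 had an unadjusted P under 0.05. None changed in the same direction in all 4 cows, which held for 11.0% of all probes.

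**Figure D1:**
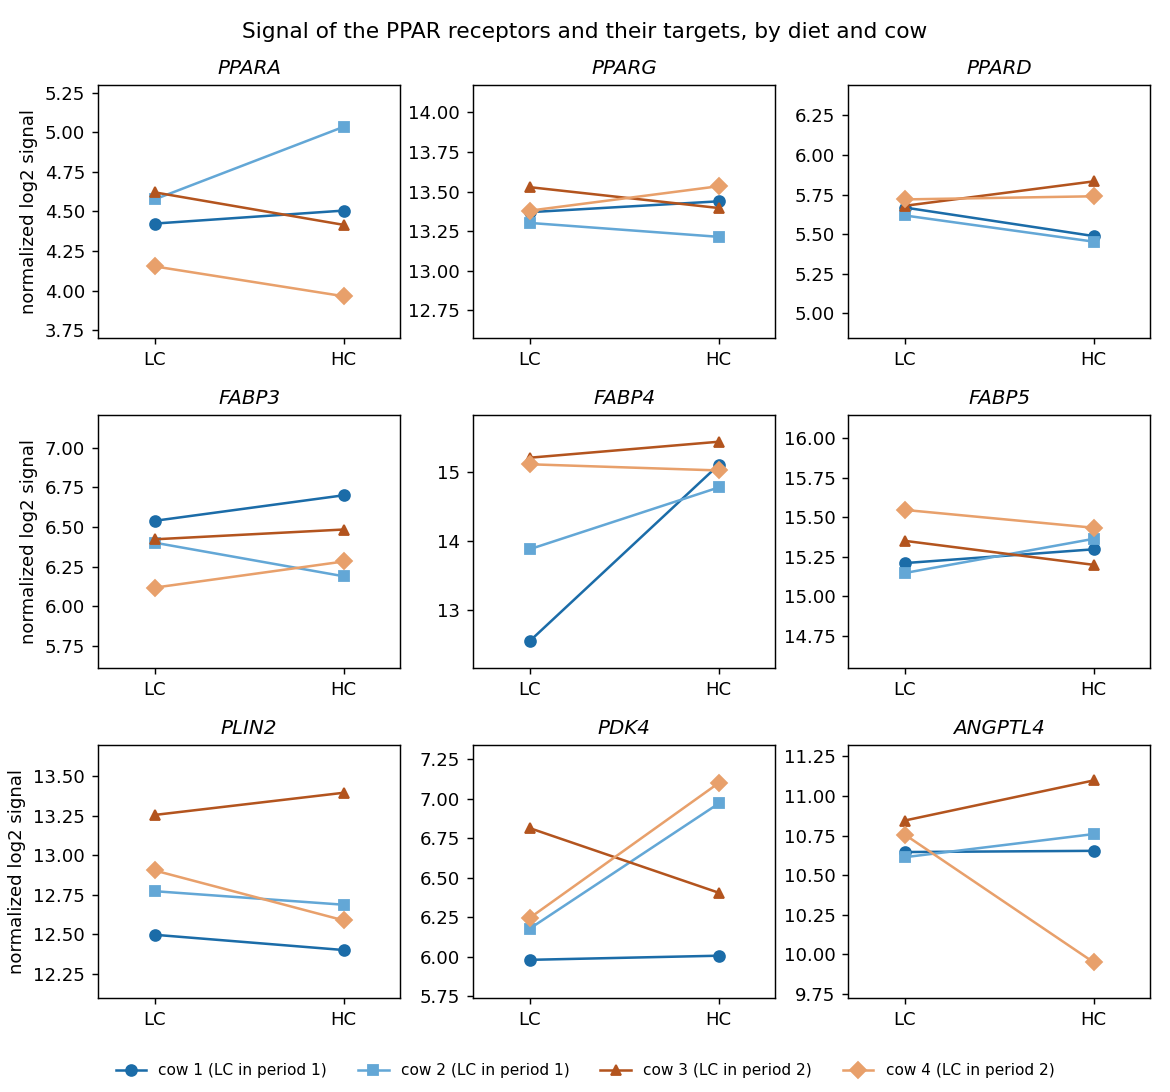
Normalized log2 signal (y axis) of the main probe of each of the 9 genes in the LC and HC group (x axis), with 1 line per cow; blue cows had LC in period 1 and orange cows in period 2. Each panel has its own y axis range. FABP4 was lower on the LC arrays of cows 1 and 2 than on the other 6 arrays, while most lines of PPARG, PPARD, FABP5 and PLIN2 are close to flat.

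Among the receptors, PPARG had the same mean in both groups. The log2 signal of PPARG (NM_181024) was 13.37, 13.30, 13.53 and 13.38 in cows 1 to 4 on LC, and 13.44, 13.21, 13.40 and 13.53 on HC. The groups overlapped, and 2 cows were higher and 2 lower on HC. LC arrays averaged 13.39 ± 0.10 (SD, n = 4), and HC arrays averaged 13.40 ± 0.13 (SD, n = 4). PPARG had a log2 fold change of 0.00, with a 95% interval from limma of -0.24 to 0.24, that is, 0.847- to 1.18-fold.

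PPARD (NM_001083636), the form found in most tissues, had log2 signals of 5.67, 5.62, 5.68 and 5.72 in cows 1 to 4 on LC, close to each other. On HC they were 5.49, 5.45, 5.83 and 5.74. Cows 1 and 2 were thus lower on HC, by 0.18 and 0.17, and cows 3 and 4 were higher, by 0.15 and 0.02. The log2 fold change was -0.04 (95% interval -0.24 to 0.15), and the groups overlapped. The second PPARD probe was above background on 2 LC and 3 HC arrays, with signals of 2.45 to 3.96. Its log2 fold change of 0.11 had a 95% interval of -0.70 to 0.91, and includes arrays on which it was not measured.

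PPARA (NM_001034036) had log2 signals of 4.42, 4.58, 4.62 and 4.15 in cows 1 to 4 on LC, and of 4.51, 5.04, 4.42 and 3.96 on HC. The highest of the 8 was the HC array of cow 2 and the lowest the HC array of cow 4. Signals on HC were higher by 0.08 and 0.46 in cows 1 and 2 and lower in cows 3 and 4, with differences of -0.21 and -0.19. The log2 fold change was 0.04 (95% interval -0.42 to 0.49). The 2 spots of the PPARA probe differed by a median of 0.14 per array and by up to 0.96, so that part of this spread lies between spots of 1 array.

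FABP4, the adipocyte form of the fatty acid-binding proteins, which is also known from endothelium and macrophages, had the widest range. Its log2 signal (NM_174314) was 12.55, 13.88, 15.20 and 15.11 in cows 1 to 4 on LC, and 15.10, 14.77, 15.43 and 15.02 on HC. The LC arrays of cows 1 and 2, both of period 1, were below the other 6 arrays, which lay between 14.77 and 15.43. The 2 LC arrays of period 2 were as high as the HC arrays, so the groups overlapped. LC arrays averaged 14.18 ± 1.25 (SD, n = 4), and HC arrays averaged 15.08 ± 0.27 (SD, n = 4). The range of 2.88 over the arrays was reached by 0.430% of the 16030 probes measured on all 8 arrays, against a median range of 0.591, and the 2 spots of the FABP4 probe differed by 0.41 at most.

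The FABP4 log2 fold change was 0.90 (standard error 0.30; 95% interval 0.18 to 1.62), with an unadjusted P of 0.0222 and an adjusted P of 1.00 from limma. A two-sided exact permutation test of 4 against 4 arrays gave P = 0.314, where 0.0286 is the smallest P it allows. FABP4 was higher on HC by 2.55 in cow 1, by 0.89 in cow 2 and by 0.23 in cow 3, and changed by -0.09 in cow 4. Within period 1 the difference was 2.01, and within period 2 it was -0.22. The test of that difference between periods, which here is also cows 1 and 2 against cows 3 and 4, had an unadjusted P of 0.00873 and an adjusted P of 0.367 from limma. On the mean of each cow it had an unadjusted P of 0.00647 and an adjusted P of 0.817. The mean of cows 1 and 2 was below that of cows 3 and 4 (log2 difference -1.12), and period 2 was higher than period 1 by 0.83 (unadjusted P = 0.0306, limma). FABP4 was the only one of the 9 genes past both thresholds for feeding order, which 2.93% of all probes passed, and for period, which 3.86% passed. The diet, feeding order and period contrasts all draw on the low LC arrays of cows 1 and 2, so their calls are not separate results. The period call did not hold without the LC arrays of cows 1, 3 or 4 or the HC arrays of cows 1 or 4, and without the last of these 2 of the 9 genes passed for feeding order.

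The call for FABP4 rests on single arrays. Leaving out the LC array of cow 1 ended it, with a log2 fold change of 0.56, just short of the fold threshold. It was also lost without the LC arrays of cows 3 or 4 or the HC arrays of cows 1 or 3, where P was 0.0523 to 0.0699 at log2 fold changes of 0.79 to 0.92. In the deposited table of normalized values, the 2 low values are 13.88 under the name of cow 1 and 12.55 under that of cow 2, exchanged against the scanner output, as holds for the other genes of these 2 cows.

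**Figure D2:**
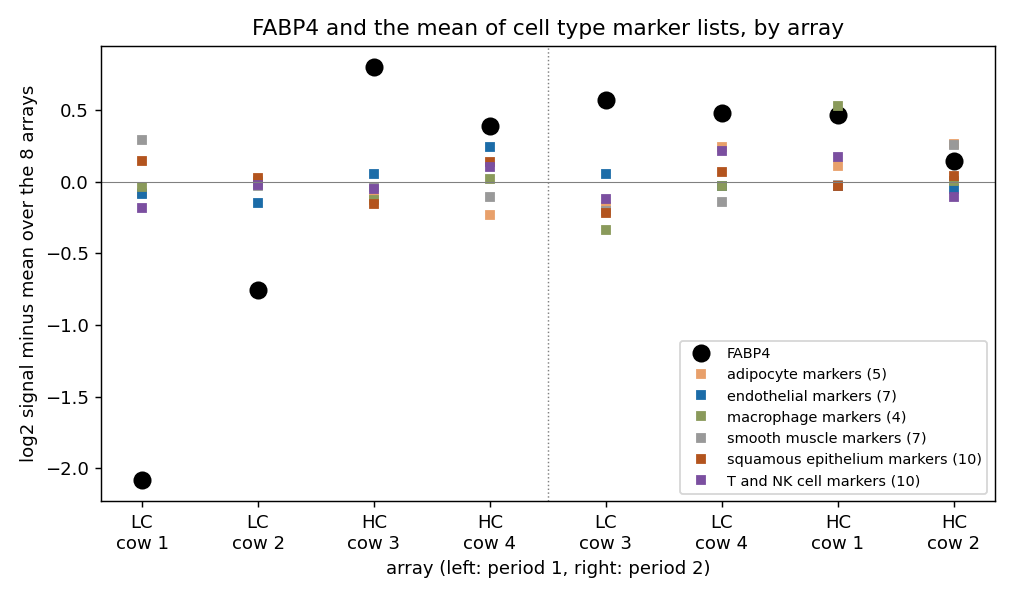
Log2 signal minus its mean over the 8 arrays (y axis) for FABP4 and for the mean of 6 lists of cell type markers, with the number of markers used, by array (x axis; period 1 left of the dotted line). FABP4 was lowest on the LC arrays of cows 1 and 2 (12.55 and 13.88 before centring), and macrophage markers were highest on the HC array of cow 1 (8.71). Means over several genes vary less than single genes, so the spreads of squares and circles are not comparable.

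Markers of cell types that can hold FABP4 are given as list means, in which single genes average out, so their spread cannot be set against that of 1 gene. The mean log2 signal of 7 endothelial markers, of 11 on the list, was 7.61 and 7.55 on the LC arrays of cows 1 and 2, the lowest of the 8, and 7.65 to 7.94 on the others. Over the LC group it ranged from 7.55 to 7.75 and over the HC group from 7.65 to 7.94. All 7 had a positive log2 fold change for HC, with a median of 0.07, and none passed. PECAM1, VWF and CDH5 had no probe, while KDR, TEK and CLDN5 were measured on all arrays. On the LC arrays of cows 1 and 2, KDR had 9.08 and 8.59, TEK 7.88 and 7.96, and CLDN5 6.06 and 5.97. The other arrays had 8.53 to 9.63 for KDR, 7.83 to 8.32 for TEK and 5.61 to 6.33 for CLDN5. Singly, KDR, TEK and CLDN5 were thus not lowest on both low arrays. ESAM was, with 6.90 and 7.03 there and 7.09 to 7.49 on the others. EMCN had 7.74 and 7.22 there, against 7.42 to 8.24, and TIE1 had 5.42 and 5.66, against 5.28 to 5.81. For adipocytes, 5 of 10 markers were measured, with means of 8.35 to 8.77 on LC and 8.30 to 8.79 on HC, and both LC arrays with low FABP4 lay inside the range of the others. PLIN1, CIDEA, LIPE, CFD and RBP4 were above background on all 8 arrays, LEP on 2 arrays of each diet and CIDEC on none, while ADIPOQ, PLIN4 and GPD1 had no probe. RBP4 alone spanned 2.61 over the arrays, from 9.18 on the LC array of cow 3 to 11.79 on that of cow 4. For macrophages, 4 of 11 markers were measured, with means of 7.84 to 8.18 on LC and 8.05 to 8.71 on HC, and of 8.14 and 8.18 on the LC arrays of cows 1 and 2. All 4, CD14, CD68, MSR1 and C1QA, had a positive log2 fold change, with a median of 0.19, and none passed. ITGAM was above background on no array, and CD163, CSF1R and MRC1 had no probe. Whether a shift in these cells has a part in the FABP4 values was not tested.

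Signals most like that of FABP4 over the 8 arrays, among 6468 other named genes measured on all of them, were those of GZMA (granzyme A, a protease of cytotoxic lymphocytes), SLA and SGK3, with Pearson r of 0.97, 0.97 and 0.96. The 8 arrays come from 4 cows, and the genes were ranked on r, so these are descriptions. GZMA had log2 signals of 3.87 and 4.20 on the LC arrays of cows 1 and 2 and of 4.32 to 4.61 on the others. A list of 18 T and NK cell markers, added after GZMA was seen, had 10 measured on all arrays, with means of 7.27 and 7.43 on these 2 LC arrays and 7.33 to 7.66 on the other 6. Over the diets, the list's means were 7.27 to 7.66 on LC and 7.34 to 7.62 on HC. Its part in the FABP4 values was not tested.

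The other fatty acid-binding proteins among the 9 genes had small diet differences. Over the 8 arrays from 4 cows, their signals had Pearson r to FABP4 of 0.48 for FABP5 and -0.22 for FABP3, given as a description. FABP5 (NM_174315), the epidermal form, had log2 signals of 15.21, 15.15, 15.35 and 15.55 in cows 1 to 4 on LC, and of 15.30, 15.36, 15.20 and 15.43 on HC. Its groups overlapped, and its log2 fold change was 0.01 (95% interval -0.23 to 0.25). The second FABP5 probe had a log2 fold change of -0.02 (95% interval -0.25 to 0.21). On the main probe, cows 1 and 2 were higher on HC, by 0.09 and 0.22, and cows 3 and 4 changed by -0.15 and -0.11. This split was not kept by the second probe, which changed by -0.01 in cow 1 and by 0.25 in cow 2.

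FABP3 (NM_174313), the heart form, had log2 signals of 6.54, 6.40, 6.42 and 6.12 in cows 1 to 4 on LC, and of 6.70, 6.19, 6.48 and 6.28 on HC. Cows 1, 3 and 4 were higher on HC, by 0.06 to 0.17, and cow 2 changed by -0.21. The log2 fold change of 0.04 had a 95% interval of -0.32 to 0.41.

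On the main probes of PPARA, PPARD and FABP5, cows 1 and 2 moved one way and cows 3 and 4 the other. This split was seen for 3 of the 9 genes and for 25.3% of all probes. The second probes of PPARD and FABP5 did not show it. Since the cow pairs differ in the order of the diets, such a split is also a difference between the periods.

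PLIN2, which coats lipid droplets, varied with the cow. Its log2 signal (NM_173980) was 12.50 on LC and 12.40 on HC in cow 1, 12.77 and 12.69 in cow 2, 13.25 and 13.40 in cow 3, and 12.90 and 12.59 in cow 4. The 2 arrays of a cow differed by 0.09 to 0.32, while the means of the cows ranged over 0.88. Cow 1 was the lowest and cow 3 the highest on both diets. The log2 fold change for diet was -0.09 (95% interval -0.59 to 0.41), lower on HC in 3 of 4 cows.

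PDK4, the kinase that shuts off pyruvate dehydrogenase when fat is burned, had log2 signals of 5.98, 6.18, 6.81 and 6.25 in cows 1 to 4 on LC (NM_001101883), and of 6.01, 6.97, 6.41 and 7.10 on HC. Cows 2 and 4 were higher on HC by 0.79 and 0.85, cow 1 by 0.03, and cow 3 changed by -0.41. The means were 6.30 ± 0.36 (SD, n = 4) on LC and 6.62 ± 0.51 (SD, n = 4) on HC. PDK4 had the second largest difference of the 9 genes, a log2 fold change of 0.32 (95% interval -0.36 to 0.99), with an unadjusted P of 0.296 from limma. The exact permutation P was 0.314, two-sided. The log2 fold change was 0.08 without the HC array of cow 2 and 0.56 without that of cow 1. It was also moved by more than 1.5 times when either array of cow 4 was omitted, to 0.17 (LC) and 0.14 (HC), and when cow 3 lacked its HC array, to 0.49. The 2 spots of the PDK4 probe differed by a median of 0.47 per array, more than for the other main probes.

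ANGPTL4, a secreted inhibitor of lipoprotein lipase, had log2 signals of 10.65, 10.61, 10.85 and 10.76 in cows 1 to 4 on LC (NM_001046043), and of 10.65, 10.76, 11.10 and 9.95 on HC. From LC to HC, cow 4 changed by -0.81, and the other 3 cows were higher by 0.01 to 0.25. The log2 fold change was -0.10 (95% interval -0.69 to 0.49), against 0.19 once the HC array of cow 4 was left out. Leaving out the HC array of cow 3 instead gave -0.39, below the fold threshold, with an unadjusted P of 0.00941 from limma. The signal most like that of ANGPTL4 over the 8 arrays was that of PDK2, another pyruvate dehydrogenase kinase, with r = 0.96. On the HC array of cow 4, PDK2 had 10.44, against 10.83 to 11.22 on the other 7.

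**Figure D3:**
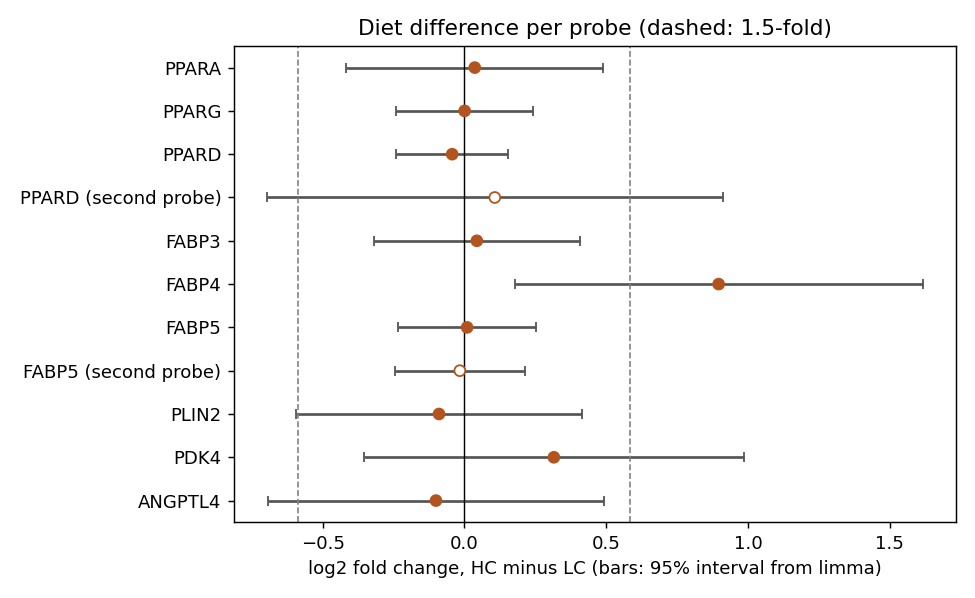
Log2 fold change of HC over LC (x axis) for the 11 probes of the 9 genes, with the 95% interval from limma as bars; filled points are main probes, open points second probes, and dashed lines mark a 1.5-fold change. The main-probe intervals of PPARA, PPARG, PPARD, FABP3 and FABP5 lie between the dashed lines, and that of FABP4 reaches from 0.18 to 1.62. The interval of the second PPARD probe, -0.70 to 0.91, extends beyond the lines.

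The signals most like those of the other genes over the 8 arrays, with r of 0.90 to 0.99, were those of CHCHD1, SIVA1 and TIMMDC1 for PPARA, of LTBP2, DHRS13 and COMMD7 for PPARG, and of CST3, RGS9BP and TSC22D1 for PPARD. They were those of DLL3, BFSP1 and MAGED2 for FABP3, of HERPUD2, RGN and RNF168 for FABP5, and of EIF4A2, CHN2 and ARIH1 for PLIN2. For PDK4 they were CLK4, LAPTM4A and GON4L, and for ANGPTL4, after PDK2, they were PDCD2L and YEATS4. No gene stood on the list of more than 1 of the 9.

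For 5 of the 9 genes, PPARA, PPARG, PPARD, FABP3 and FABP5, the main-probe 95% interval for diet stayed within a 1.5-fold change either way. For FABP4, PLIN2, PDK4 and ANGPTL4 it did not, so that the 4 arrays per diet leave a change of this size possible. The upper bounds were 3.06-fold for FABP4 and 1.98-fold for PDK4, and the lower bounds 0.663-fold for PLIN2 and 0.619-fold for ANGPTL4. The interval of the second PPARD probe was 0.617- to 1.88-fold. No share over all probes is given beside the count of 5.

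The sum of squares of the 8 log2 signals was divided into the parts between cows, between diets, between periods, and the rest within cows. Between cows lay 92.3% for PLIN2, 80.0% for FABP3 and 79.4% for PPARA, and over 50% for 7 of the 9 genes. The exceptions were FABP4, at 43.2%, and PDK4, at 43.9%. Over the 16030 probes measured on all arrays, the median was 52.9%. Diet held 24.8% for FABP4, 14.7% for PDK4 and 3.24% or less for the other 7 genes, against a median of 5.12% over these probes. Period held 32.6% for FABP5, 29.7% for PPARD and 21.0% for FABP4. In an F test between the 4 cows in limma, added after the values had been seen, PLIN2 and PPARA had unadjusted P of 0.0175 and 0.0251 and adjusted P of 0.230 and 0.257. These are 2 of 9 genes, against 16.3% of all probes with an unadjusted P under 0.05.

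**Figure D4:**
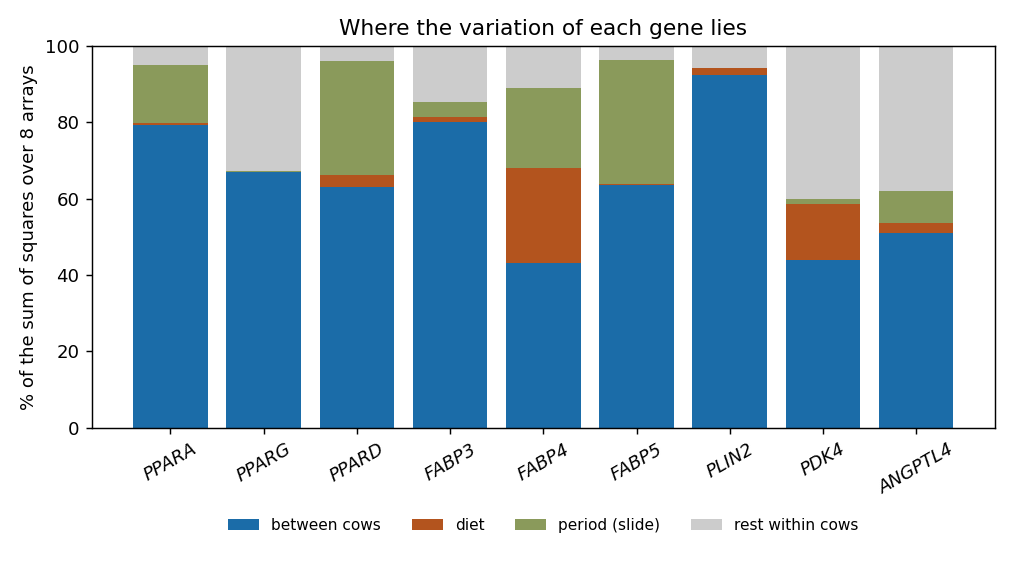
Share of the sum of squares over the 8 arrays (y axis, percent) that lies between cows, between diets, between periods (slides) and in the rest within cows, for each of the 9 genes (x axis). The diet part is visible for FABP4 (24.8%) and PDK4 (14.7%), and the part between cows is the largest for PLIN2 (92.3%).

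The wider pathway was described with 8 lists of 110 other genes in all, of which 65 had a probe, 54 of them above background on all 8 arrays and 8 on none. None of the 65 passed both thresholds for diet, and 1, CREBBP, had an unadjusted P under 0.05 in limma, which 3.65% of all probes had. Log2 fold changes were positive for 32 and negative for 33, with a median of -0.0042, against 10735 and 10740 probes and a median of -0.00 over the whole array. The median over the 9 genes was 0.01, with 6 positive and 3 negative.

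Of the receptor partners and coregulators, 5 of 17 had a probe and RXRA and RXRB had none. CREBBP (NM_001164022), a histone acetyltransferase that PPARs recruit, had log2 signals of 9.96, 9.65, 10.09 and 10.05 in cows 1 to 4 on LC, and of 10.47, 10.29, 10.11 and 10.47 on HC. All HC signals were above all LC signals, which held in one direction or the other for 1.60% of all probes. The CREBBP log2 fold change was 0.39 (standard error 0.13), short of the fold threshold, with an unadjusted P of 0.0210 and an adjusted P of 1.00 from limma. The exact permutation P was 0.0286, two-sided, the smallest possible. NR1H3, the liver X receptor alpha, and PPARGC1A, the coactivator PGC-1 alpha, had log2 fold changes of -0.10 and -0.06. RXRG was above background on no array.

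Of 14 genes of fatty acid uptake and activation, 9 had a probe, and 7 of these had a positive and 2 a negative log2 fold change, with a median of 0.10. LPL, the lipase that ANGPTL4 inhibits, had the largest, 0.35 (standard error 0.25), and was higher on HC in 4 of 4 cows, with an unadjusted P of 0.202 from limma. SLC27A2, a fatty acid transporter, had -0.26, and ACSL5, an acyl-CoA synthetase, had 0.16. Of 21 fatty acid oxidation targets, 15 had a probe and 14 were measured on all arrays. ACADL, ACOX2 and ACAA1, enzymes of mitochondrial and peroxisomal oxidation, had the largest differences, -0.19, -0.16 and -0.15, and the median over the 15 was -0.04.

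Of 15 genes of lipid droplets and lipolysis, 11 had a probe. The largest differences were -0.31 for LIPE, the hormone-sensitive lipase, -0.27 for G0S2, an inhibitor of lipolysis, and -0.12 for ABHD5. G0S2 was lower on HC in 4 of 4 cows, and the same direction in all 4 cows held for 11.0% of all probes. PLIN5, a droplet protein of oxidative tissues singled out after its values were seen, had log2 signals of 11.44 on LC and 11.83 on HC in cow 1, and of 13.84 to 14.31 on the other 6 arrays. Both arrays of cow 1 were thus more than 2 log2 units below those of the other cows. Between cows lay 98.4% of the PLIN5 sum of squares, the F test between cows had an unadjusted P of 0.00018 and an adjusted P of 0.0719 from limma, and the log2 fold change for diet was 0.10.

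Of the other PDK and PDP genes, 4 of 6 had a probe. PDP2, a phosphatase that reverses the action of PDK4, had a log2 fold change of 0.22 and was higher on HC in 4 of 4 cows (unadjusted P = 0.0945, limma), while PDK3 and PDK2 had 0.11 and -0.11. Of the other ANGPTL genes, 4 of 7 had a probe, with ANGPTL1 at -0.20 and ANGPTL2 at -0.08. Of 23 other targets, 12 had a probe. MMP1, a collagenase, had the largest log2 fold change of these, 0.73 (standard error 0.32), with signals of 5.85 and 7.34 on the HC arrays of cows 1 and 2 and of 4.81 to 5.18 on the other 6. MMP1 did not pass, with an unadjusted P of 0.0627 from limma, but did with cow as a fixed block in limma, with an unadjusted P of 0.0298 and an adjusted P of 0.843. SCD, the stearoyl-CoA desaturase, had -0.27 and was lower on HC in 4 of 4 cows, and APOA1 had -0.24. The same direction in all 4 cows, as for PDP2 and SCD, held for 11.0% of all probes.

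Of the fatty acid-binding proteins outside the 10 genes, 5 of 7 had a probe. DBI, the acyl-CoA-binding protein, and FABP7 had log2 fold changes of 0.00 and 0.22, and FABP1 was above background on no array. FABP2, the intestinal form, is on the study's own list of changed genes, which was drawn from these arrays. Its log2 signal (NM_001025332) was 3.38 and 3.27 on LC and 4.07 and 4.73 on HC in cows 1 and 2, the 4 arrays on which it was above background. In cows 3 and 4 it was 2.03 and 2.53 on LC and 0.51 and 0.39 on HC, and above background on none of these, so no fold change over the diets is given. In the deposited table, the value under the name of the HC array of cow 1 was 1.65, equal to the mean of the other 3 HC values. Cows 1 and 2 are exchanged there, so the matching scanner value is the 4.73 of the HC array of cow 2.

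**Figure D5:**
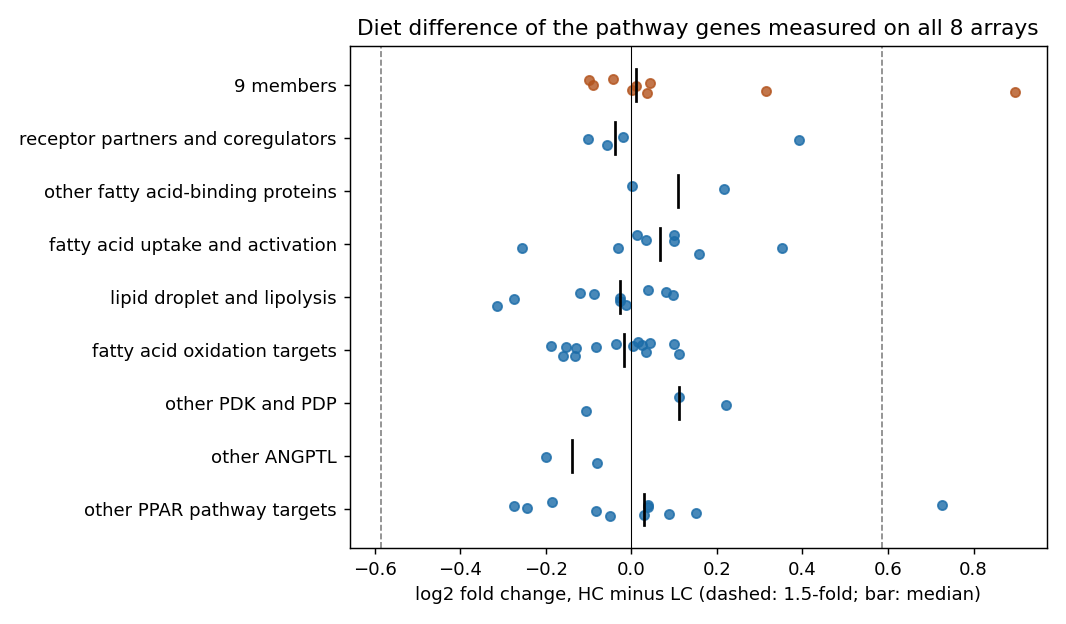
Log2 fold change of HC over LC (x axis) for the 9 genes and for the genes of 8 pathway lists measured on all 8 arrays, 1 point per gene and list, with the median as a bar and dashed lines at a 1.5-fold change. FABP4 (0.90) and MMP1 (0.73) are the points beyond the dashed lines, and the list medians lie between -0.14 and 0.11.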

How the data were processed

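Per the file headers, each deposited scanner file (Agilent Feature Extraction 10.7.3.1, 1 colour) gives background-subtracted spot intensities that were not yet normalized, in which the software had set the lowest signals to small positive surrogates. A second deposited table holds the log2 values that the authors quantile-normalized in GeneSpring. From the intensities, control spots and the 0 to 13 outlier spots per array were removed. Quantile normalization of log2 values used limma 3.58.1 (R 4.3.3), and spots were then averaged per probe. Fold changes of dim probes are less certain, and can be small or large. Of 2 probes above background on no array, that of FABP1 spanned 0.20 log2 units over the arrays and that of RXRG 2.48. The part of the surrogates in this was not tested. With only 4 arrays per diet, all estimates are imprecise. Of 10176 probes with a RefSeq accession, 8297 were named through the reference (ARS-UCD2.0). Positions are not given, because the array was annotated on another build, and no probe, promoter or protein sequences were used here.

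Diet, period and their interaction, the terms of the paper's model, were fitted in limma to all 21475 probes (4 residual and 2.26 prior degrees of freedom), with Benjamini-Hochberg adjustment over all of them. Here the interaction equals cows 1 and 2 against cows 3 and 4. The main fit has no term for cow. The LC and HC arrays of a cow share the animal, per the labels, and their deviations from the diet means correlated with r of 0.285, 0.298, 0.467 and 0.113 in cows 1 to 4. Between different cows r was -0.237 to 0.185. The highest of these, for the HC array of cow 4 with the LC array of cow 1, was above the r within cow 4. Exact permutation tests used scipy 1.17.1, and figures matplotlib 3.10.9. The fit was also run on simulated data with independent noise and no cow effect. That run cannot show how the fit behaves where 2 arrays share a cow.

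Alternatives were another scaling (75th percentile), normexp background correction of the median signals (offset 50, since no mean signal was in the files), the deposited table, a filter on dim probes, fits without moderation, without the interaction or by diet alone, cow as a block, each period alone, the mean of a gene's probes, and leaving out each array. Beside the 10 genes, the genes named are those of the pathway lists past both thresholds, up to 3 per list with the largest difference measured on all arrays, and the 3 with the highest r to a member. FABP2, PLIN5 and marker genes outside this rule were singled out with their values known. The members and lists were chosen with earlier results of these data known.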

Additional observations from a re-analysis of the deposited data

Results flagged for a closer look

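For 3 genes, the main probe moved one way between the diets in cows 1 and 2 and the opposite way in cows 3 and 4. This held for 25.3% of all probes. The second probes of PPARD and FABP5 did not show it. The mean HC minus LC difference of cows 1 and 2 exceeded that of cows 3 and 4 by 0.468 for PPARA and by 0.284 for FABP5, and for PPARD it was lower, with a difference of -0.260 (log2). This pattern was not tested for these genes beyond the period term, with which it is the same contrast, and whose unadjusted P from limma was 0.256 for PPARA, 0.204 for FABP5 and 0.157 for PPARD.

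For FABP4, the diet difference differed between the periods, 2.01 against -0.22 on the log2 scale, for which limma gave an unadjusted P of 0.00873 and an adjusted P of 0.367. No sample of the 9 genes stood apart within its diet by Dixon's test, which was applied to 18 groups of 4 arrays and flags about 1 in 20 by chance. For FABP4 on LC the test decides little, because 2 low arrays among 4 can hide each other.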

How the results depend on the processing

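The count of probes past both thresholds for diet, 198, was 8 with normexp, 415 in the deposited table, 75 after the filter on dim probes, 105 without moderation, 759 within period 1 and 812 within period 2. Leaving out each array gave 239 to 404, with more than 1.5 times the count without the LC arrays of cow 2 (334) or 4 (404) or the HC arrays of cows 2 (391), 3 (356) or 4 (378). With cow as a fixed replicate block it was 276, and as a random block 290. The count of 1 among the 9 genes, FABP4, was kept in both replicate block fits, with unadjusted P of 0.0348 in the fixed one, and became 0 without moderation, without the interaction, by diet alone and within period 2, and 0 to 1 upon omission of single arrays. Among the pathway genes the count of 0 became 1 in the deposited table (PCK1) and with the filter (MMP1), and 2 in each replicate block fit (MMP1 and RXRG). It was 3 within period 1, 4 within period 2, and 0 to 2 upon omission of single arrays. RXRG was above background on no array, and PCK1 on 1 array of each diet. The deposited PCK1 value for the HC array of cow 3 was 2.34, against 0.20 from the scanner output. It equals the mean of the other deposited HC values, 1.36, 2.43 and 3.22. FABP2, among the calls within both periods, was not above background in cows 3 and 4. For period the count of 1 was 0 without moderation and 0 to 1 upon omission of single arrays, which gave 1 to 2 for feeding order. The cause of these shifts was not tested.

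FABP4 kept a positive log2 fold change in 18 of 19 alternatives, 0.564 to 1.23 upon omission of single arrays, and was -0.219 within period 2. None of the other 8 genes passed both thresholds in any alternative, and the sign of their small differences was not stable. With normexp, PPARA was -0.0029 and FABP5 -0.0006. With the 75th percentile, PPARG was -0.0109 and FABP5 -0.0275, and in the deposited table PPARG was -0.0013. As the mean of both probes, PPARD was 0.0322 and FABP5 -0.0031, the former with a second probe that was above background on 5 of 8 arrays. Within period 1, PPARA was -0.310, PPARD 0.143, FABP3 -0.0869 and PLIN2 0.357, and within period 2, PPARG was -0.127, FABP5 -0.118 and PDK4 -0.0413. Omission of single arrays gave -0.0958 to 0.169 for PPARA, -0.0552 to 0.057 for PPARG, -0.0839 to 0.172 for FABP3, -0.0489 to 0.0683 for FABP5, -0.291 to 0.112 for PLIN2, -0.388 to 0.188 for ANGPTL4, -0.0666 to -0.0194 for PPARD and 0.0751 to 0.556 for PDK4.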
